A study of Homo sapiens with 10 samples.

Results

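The HOX genes encode homeodomain transcription factors and lie in 4 clusters, HOXA on chromosome 7, HOXB on chromosome 17, HOXC on chromosome 12 and HOXD on chromosome 2. All peaks that overlapped a HOX gene body or the 2 kb on either side of it were taken, and each peak was counted once per cluster. Of the 39 HOX genes, 38 are described here, among 19974 protein-coding genes in the gene table, and the other gene is not analysed here. These 38 gene regions covered 370.7 kb. They held 48 of the 87815 peaks of EV, 38 of 53919 in K-KD, 5 of 30732 in WT, 36 of 59098 in K rep KO and 32 of 53396 in K non-rep KO.

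DNA methylation had been profiled by MeDIP-seq in HEK293T, a cell line established from human embryonic kidney. Here sonicated DNA is pulled down with an antibody against 5-methylcytosine, and a peak is a stretch where captured fragments pile up above background. The 10 samples were 5 immunoprecipitated libraries, 1 per condition, and their inputs, and the deposited files gave 1 peak list per condition, so no value below has a replicate. All conditions were the same cell line grown in the same medium. EV and WT were taken as the unperturbed conditions, K-KD as the knockdown that the series text gives as KCNQ1OT1_K, and the K rep KO and the K non-rep KO lists as knockouts. KCNQ1OT1 is an imprinted long non-coding RNA that runs antisense to the potassium channel gene KCNQ1. The labels leave EV, K, rep and non-rep unexplained, and do not say whether a knockout was 1 clone or how the knockdown was made. The lists hold no expression values, so the labelled cell type was not checked against markers.

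HOX genes give cells their position along the body axis. Within a cluster they stand in the order in which they act from head to tail, and genes of the same number in different clusters, called paralogs, descend from 1 ancestral gene. Group 1 to 4 genes act in the hindbrain and pharyngeal arches, and group 9 to 13 genes in the trunk, limbs and urogenital tract, the group 11 genes being required for kidney formation. Silent HOX clusters are usually held by Polycomb repression, with start sites rich in CpG, the dinucleotide at which mammalian cytosine methylation is laid down. Methylation of HOX gene bodies and starts is known from development and from cultured and tumour cells. Background values for the whole lists are given first because WT stood apart.

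The WT list was the shortest, and its median peak of 748 bp was wider than the 505 to 522 bp of the other lists. Summit pileups, the number of overlapping fragments at a peak's highest point, were recovered from the deposited fold enrichment and −log10 p. HOX peaks had a median pileup of 13 in the EV list, 10 in K-KD, 7 in WT and 10 in both knockouts. The lowest was 6 and the highest 22. Over all peaks of a list the median pileup was 12 in EV, 11 in K-KD, 14 in WT and 12 in K rep KO, with 10 in K non-rep KO. A HOX peak therefore rests on few fragments, and a missing peak says only that none was called at this depth.

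Start-site sequences are shown for 4 HOX genes because they carry the contrast between starts under a peak and starts without one. The windows hold 250 bases before and 50 bases from the annotated start, read 5′ to 3′ on the gene's strand, from RefSeq on GRCh38.p14. Capitals mark every CG, the site of CpG methylation, whose letters read the same on both strands. HOXA2, on the minus strand at chr7:27102634-27102933, has 11 CG and lay under a peak in EV, K-KD, WT and K rep KO. HOXB1, on the minus strand at chr17:48530962-48531261, has 11 CG and was touched by a peak in EV and K non-rep KO. HOXD10, on the plus strand at chr2:176116528-176116827, has 23 CG and was touched by a peak in K-KD and K rep KO. HOXA13, on the minus strand at chr7:27200042-27200341, has 44 CG and lay under no peak in any list. It was chosen as the contrast after its values were seen. Its CG number is the highest of the 19 distinct windows without a peak, which hold 0 to 44 (median 25).
HOXA2: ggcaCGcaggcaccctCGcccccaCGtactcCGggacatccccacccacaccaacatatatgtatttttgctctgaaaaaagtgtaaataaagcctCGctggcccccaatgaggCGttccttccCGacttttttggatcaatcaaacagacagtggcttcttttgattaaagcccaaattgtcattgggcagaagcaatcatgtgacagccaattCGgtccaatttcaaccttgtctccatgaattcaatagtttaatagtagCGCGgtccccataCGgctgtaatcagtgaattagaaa
HOXB1: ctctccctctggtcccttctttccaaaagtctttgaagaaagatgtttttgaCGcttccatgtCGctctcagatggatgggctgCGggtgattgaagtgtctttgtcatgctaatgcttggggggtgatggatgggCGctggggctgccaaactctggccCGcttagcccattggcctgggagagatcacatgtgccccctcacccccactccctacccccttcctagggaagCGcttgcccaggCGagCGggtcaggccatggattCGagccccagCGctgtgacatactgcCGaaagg
HOXD10: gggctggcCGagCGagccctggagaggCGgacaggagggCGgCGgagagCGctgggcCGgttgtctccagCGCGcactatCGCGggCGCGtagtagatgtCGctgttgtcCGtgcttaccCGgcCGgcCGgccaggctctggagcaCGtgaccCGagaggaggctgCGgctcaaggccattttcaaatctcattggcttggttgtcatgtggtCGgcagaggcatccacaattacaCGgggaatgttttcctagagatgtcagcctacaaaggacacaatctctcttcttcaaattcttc
HOXA13: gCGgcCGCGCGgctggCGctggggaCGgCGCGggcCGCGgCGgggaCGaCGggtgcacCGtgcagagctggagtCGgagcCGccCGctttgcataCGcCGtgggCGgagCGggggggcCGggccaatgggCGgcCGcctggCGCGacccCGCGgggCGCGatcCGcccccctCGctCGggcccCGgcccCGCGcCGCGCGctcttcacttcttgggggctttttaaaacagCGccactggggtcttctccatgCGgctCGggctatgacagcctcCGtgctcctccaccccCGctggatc

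HOX gene regions were densely covered in every list but WT. Peaks covered 8.37% of their length in the EV list, 5.89% in K-KD, 0.521% in WT and 5.49% in K rep KO, with 4.64% in K non-rep KO. Over all protein-coding gene regions the shares were 2.68%, 1.46%, 0.908%, 1.62% and 1.47% in the same order. WT was the only list of the 5 in which the HOX share was below the protein-coding share. Per megabase, HOX regions held 129 peaks in the EV list (exact Poisson 95% interval 95.5 to 172), 102 in K-KD (72.5 to 141), 13.5 in WT (4.38 to 31.5) and 97.1 in K rep KO (68.0 to 134), with 86.3 in K non-rep KO (59.0 to 122). Protein-coding gene regions held 40.7, 23.7, 10.8, 25.4 and 23.05 per megabase. The protein-coding value lay below the HOX interval in all lists but WT, where it lay inside it. These intervals cover counting error only, and neighbouring peaks are not independent. HOX genes are short, with a median length of 3786 bp against 24170 bp over protein-coding genes, so the fixed 2 kb on either side makes up more of their regions. The 33 other homeobox genes described below, with a median length of 6315 bp, held more peaks than the 38 HOX genes in every list. Their density was not computed, so dense coverage cannot be called particular to the HOX genes.

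**Figure D1:**
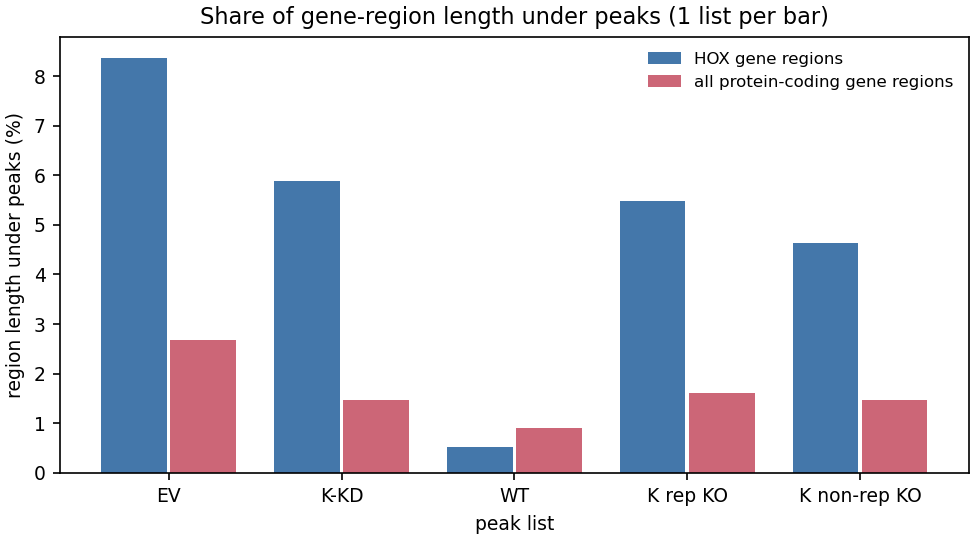
Share of gene-region length lying under peaks (vertical axis, percent) for each of the 5 peak lists, in HOX gene regions and in all protein-coding gene regions, with 1 list per bar and no replicate. The HOX bar is the taller in EV (8.37% against 2.68%), K-KD and both knockouts, and the shorter in WT (0.521% against 0.908%).

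The 1 Mb on either side of the 4 clusters, 8 Mb in all, gave the density around the HOX genes. These flanks held 51.0 peaks per megabase in the EV list, 30.5 in K-KD, 16.1 in WT and 32.9 in K rep KO, with 30.0 in K non-rep KO. The flanks' WT value was above the 10.8 per megabase of protein-coding gene regions, and the HOX value of 13.5 was below that of the flanks. In the other lists the HOX value was above that of the flanks.

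WT was the lowest list in each of the 4 clusters. The HOXA regions, on chr7:27098354-27202091, held 9 peaks in the EV list, 8 in K-KD, 1 in WT and 4 in K rep KO, with 4 in K non-rep KO. The HOXB regions, on chr17:48526526-48730750, held 11, 10, 1, 11 and 11 in the same order. HOXC, on chr12:53936831-54058030, held 12, 10, 1, 9 and 9, and HOXD, on chr2:176085487-176192907, held 16, 10, 2, 12 and 8. The exact Poisson intervals of the 4 lists other than WT overlapped one another within each cluster. The interval of WT was 0.0253 to 5.57 in HOXA, HOXB and HOXC and 0.242 to 7.22 in HOXD. It was separate from that of EV in HOXC (6.20 to 21.0) and HOXD (9.15 to 26.0), and overlapped that of every other list in each cluster, and of EV in HOXA and HOXB.

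**Figure D2:**
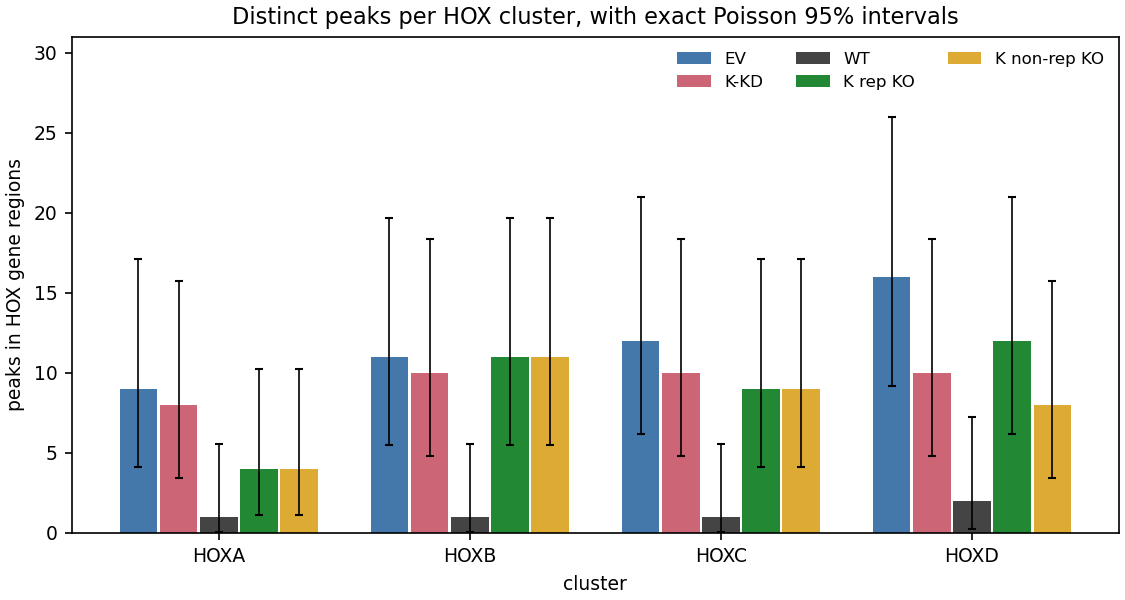
Distinct peaks in HOX gene regions (vertical axis) for each cluster and list. Bars are 1 list each and error bars are exact Poisson 95% intervals, which cover counting error only. WT holds 1, 1, 1 and 2 peaks in HOXA to HOXD, the lowest bar in every cluster.

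The surroundings differed between clusters. The HOXD flanks were sparse, with 13.5 peaks per megabase in the EV list, 7.5 in K-KD, 2.00 in WT, 5.50 in K rep KO, then 9.50 in K non-rep KO. HOXD gene regions held 201, 126, 25.2, 151 and 101 per megabase in the same order. Around HOXB the flanks held 87.5, 60, 26.0, 62.0 and 53.0 per megabase, beside 110, 99.7, 9.97, 110 and 110 in HOXB gene regions. The step up from flank to cluster was therefore larger around HOXD than around HOXB in the 4 lists other than WT. In WT the HOXB value, from 1 peak, lay below that of its flanks. The HOXD value of WT lay above that of its flanks but rests on 2 peaks. Between HOXB9 and HOXB13, where the cluster has a long stretch without HOX genes, a further 6 peaks lay in the EV list, 3 in K-KD, 0 in WT and 5 in K rep KO, with 7 in K non-rep KO. Between HOXB8 and HOXB9 each list but WT held 1 more outside the HOX gene regions.

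Of the 38 HOX genes, 28 had at least 1 peak in the EV list (73.7%), 26 in K-KD (68.4%), 7 in WT (18.4%) and 22 in K rep KO (57.9%), with 24 in K non-rep KO (63.2%). Over all protein-coding genes 68.3% had one in the EV list, 55.5% in K-KD, 36.7% in WT and 56.6% in K rep KO, with 55.2% in K non-rep KO. The HOX shares were near these values except in WT, although HOX genes are shorter. A peak was seen in at least 1 list for 32 genes, and in all 5 lists for HOXA2, HOXC4, HOXC5, HOXD3 and HOXD11. The 6 genes without any peak were HOXA4, HOXA5, HOXA6, HOXA9, HOXA10 and HOXB8. HOXC4 and HOXC5 were counted in WT through the same peak. The shares of all protein-coding genes with a peak in any list, in all 5 or in none are not given here. The counts of 32, 5 and 6 genes therefore cannot be called many or few.

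**Figure D3:**
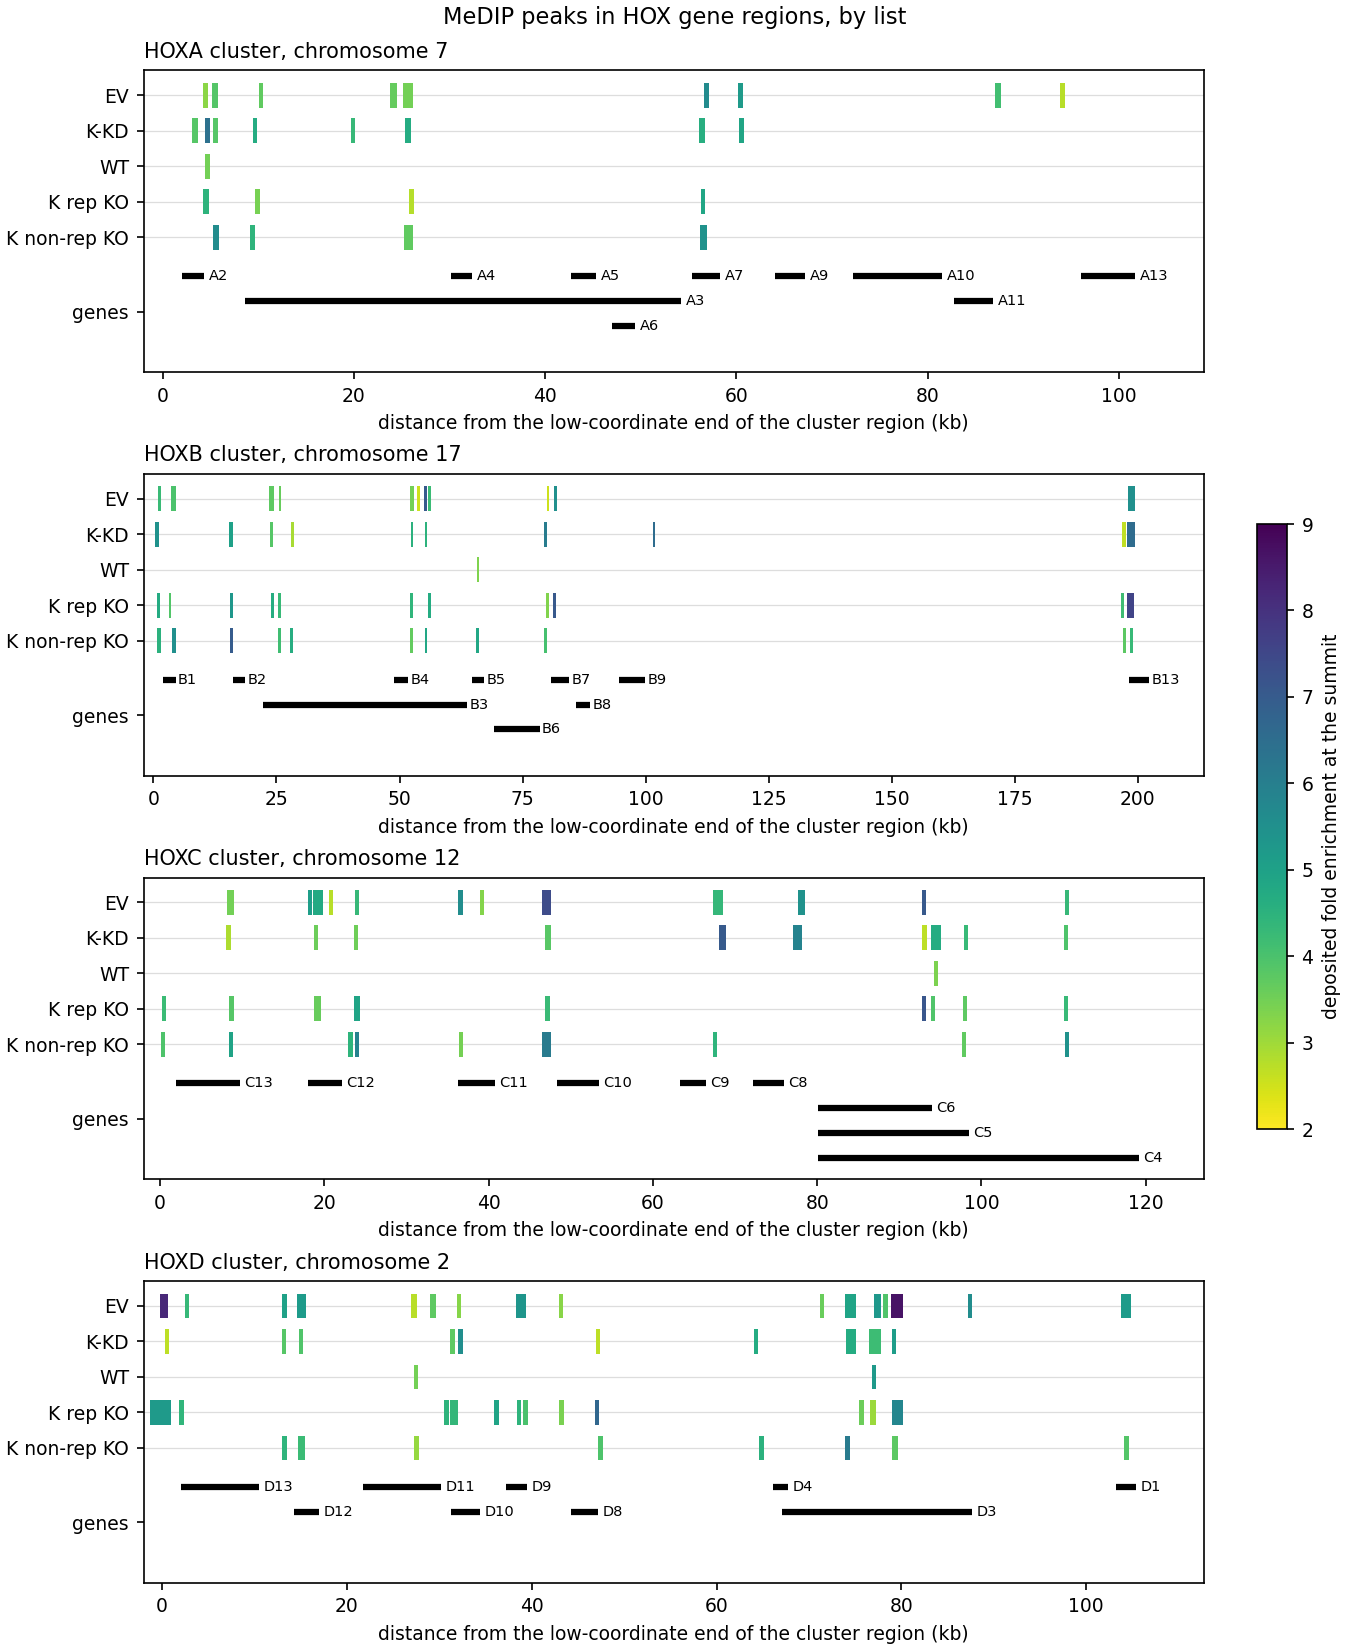
Position of each peak (horizontal axis, kb from the low-coordinate end of the cluster region) in the 5 lists (rows), coloured by the deposited fold enrichment, with HOX genes drawn as black bars below. Peaks narrower than 0.5 kb are drawn 0.5 kb wide. WT rows hold 5 marks in all, and no list has a mark over HOXA4, HOXA5, HOXA6, HOXA9 or HOXA10.

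Peaks left the middle of HOXA free. No list had a peak on chr7:27124589-27154421, a stretch of 29.8 kb that holds HOXA4, HOXA5 and HOXA6 whole, nor on chr7:27158946-27185457, a stretch of 26.5 kb that holds HOXA9, HOXA10 and HOXA11. HOXA10 and HOXA11 act in the reproductive tract, and HOXA5 in the lung. HOXA11 was counted through 1 EV peak within 2 kb of its body. The longest free stretches within HOXC and HOXD were 14.3 kb and 11.4 kb and held no whole HOX gene. In HOXB a stretch of 23.8 kb at chr17:48554892-48578664 held HOXB4, which was counted through peaks within 2 kb of it.

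Paralog groups were read from head to tail in 3 zones. The 11 genes of groups 1 to 4 held 12.2 peaks per 100 kb of region in the EV list, 11.6 in K-KD, 1.59 in WT and 8.999 in K rep KO, with 9.53 in K non-rep KO. The 11 genes of groups 5 to 8 held 8.44, 9.64, 2.41, 9.64 and 6.03. The 16 genes of groups 9 to 13 held 14.5, 9.43, 0.725, 10.2 and 8.70. The exact Poisson intervals of the 3 zones overlapped in every list.

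**Figure D4:**
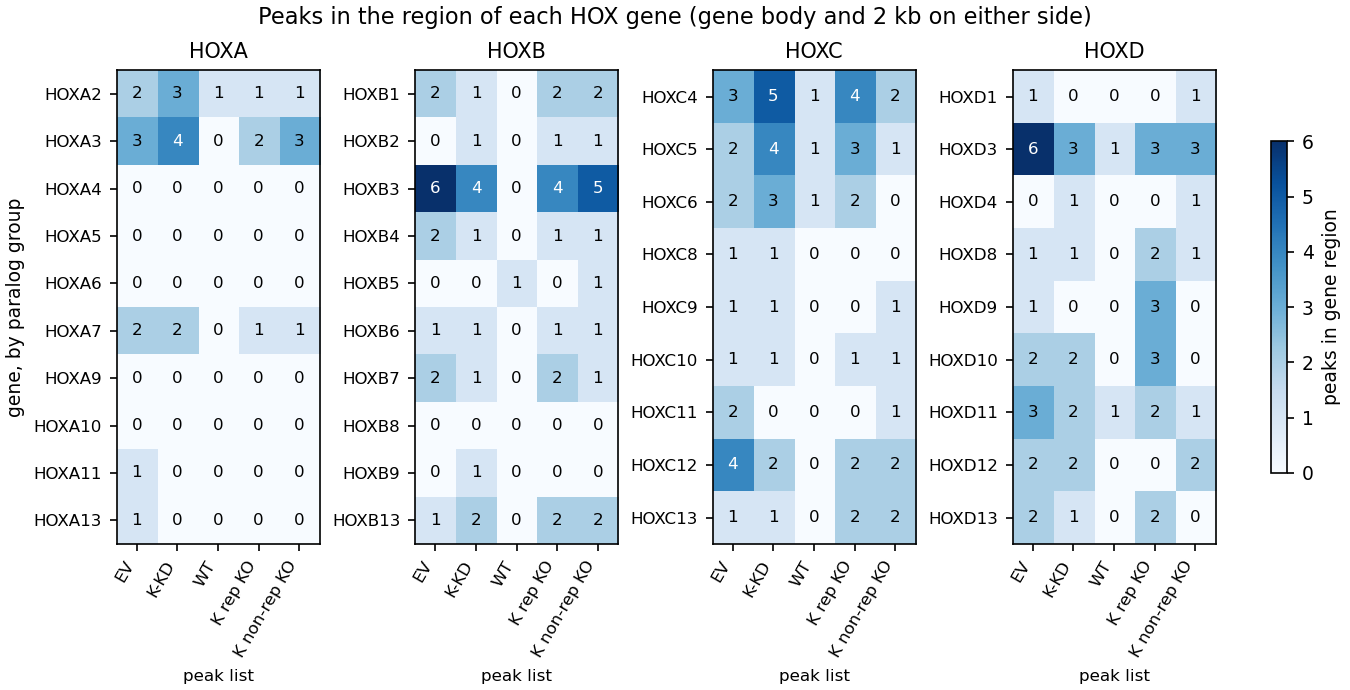
Number of peaks in the region of each of the 38 HOX genes (rows, by paralog group within each cluster) in the 5 lists (columns), with colour from 0 to 6 peaks. HOXB3 and HOXD3 reach 6 in EV, 6 genes are at 0 in all lists, and no gene exceeds 1 in WT.

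Group 2 and 3 genes pattern the hindbrain and the pharyngeal arches. The 3 group 3 genes are among the longest HOX genes, with 45574 bp in HOXA3, 41372 bp in HOXB3 and 20570 bp in HOXD3, so their counts are not per length. HOXB3 held 6 peaks in the EV list, 4 in K-KD, 0 in WT and 4 in K rep KO, with 5 in K non-rep KO. HOXD3 held 6, 3, 1, 3 and 3. HOXA3, needed for the thymus and parathyroid, held 3, 4, 0, 2 and 3, and its annotated body runs across HOXA4, HOXA5 and HOXA6. HOXA2, which sets the identity of the hyoid arch, held 2, 3, 1, 1 and 1. HOXB2 held 0, 1, 0, 1 and 1. Group 1 members held at most 2 peaks in any list, HOXB1 holding 2, 1, 0, 2 and 2 and HOXD1 holding 1, 0, 0, 0 and 1.

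HOXC4, HOXC5 and HOXC6 are annotated from a common start and share peaks, so their counts are not separate measurements. HOXC4 held 3 peaks in the EV list, 5 in K-KD, 1 in WT and 4 in K rep KO, with 2 in K non-rep KO. HOXC5 held 2, 4, 1, 3 and 1, and HOXC6 held 2, 3, 1, 2 and 0. K-KD was the highest list for all 3. The other group 4 genes were HOXB4 with 2, 1, 0, 1 and 1 and HOXD4 with 0, 1, 0, 0 and 1.

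Among group 5 to 8 genes, which act in the thoracic region and in blood cells, counts were at most 2 apart from HOXC5 and HOXC6. In the order used above, HOXA7 held 2, 2, 0, 1 and 1 peaks, HOXB7 held 2, 1, 0, 2 and 1, and HOXB6 held 1, 1, 0, 1 and 1. HOXD8 held 1, 1, 0, 2 and 1 and HOXC8 held 1, 1, 0, 0 and 0. HOXB5 was the 1 gene with a WT peak and none in EV, K-KD or K rep KO, with a further peak in K non-rep KO.

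Group 9 to 13 genes include those that shape the limbs and the urogenital tract. HOXC12 held 4 peaks in the EV list, 2 in K-KD, 0 in WT and 2 in K rep KO, with 2 in K non-rep KO. HOXC13, needed for hair and nails, held 1, 1, 0, 2 and 2. HOXD11, of the kidney-forming group, held 3, 2, 1, 2 and 1, while of its paralogs HOXA11 had 1 peak, in EV, and HOXC11 held 2, 0, 0, 0 and 1. HOXD9 held 1, 0, 0, 3 and 0 and HOXD10 held 2, 2, 0, 3 and 0, and K rep KO was the highest list for both of these neighbours. They share 1 of these K rep KO peaks, so the 2 counts are not separate measurements. The other 2 K rep KO peaks of HOXD9 lie within the stretch of its 1 EV peak. HOXD12 held 2, 2, 0, 0 and 2 and HOXD13, needed for the digits, held 2, 1, 0, 2 and 0. HOXB13, a prostate and tail-end gene, held 1, 2, 0, 2 and 2. HOXC10 held 1 peak in each list but WT, HOXC9 lacked one in WT and K rep KO, HOXB9 had 1 in K-KD and HOXA13 had 1 in EV.

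Merging the overlapping HOX peaks of the 5 lists gave 67 regions, 11 in HOXA, 17 in HOXB, 16 in HOXC and 23 in HOXD. Of these, 44 (65.7%) were held by at least 2 lists, against 43.5% of the 144156 regions of the whole series. By number of lists, 23 were held by 1, 12 by 2, 18 by 3, 14 by 4 and 0 by 5, while 7.97% of all regions were held by 5. The 4 lists other than WT shared 12 regions that WT lacked, which is 17.9% of HOX regions (exact 95% interval 9.61 to 29.2) against 2.66% of all regions. The 2.66% leaves out the 7.97% of all regions that WT held as well. WT held 5 HOX peaks in all, so this contrast is no result apart from that count. HOX regions were also more densely covered than protein-coding regions in the 4 lists other than WT, so more sharing was possible. With peaks limited to a −log10 q of 5 or more, 0 regions were left in all 4 of these lists, and 12 of 31 were held by at least 2 lists. EV alone held 12 regions (17.9%, against 23.7% of all) and K rep KO alone 5 (7.46%, against 10.4%). K-KD alone held 4 (5.97%, against 9.94%), K non-rep KO alone 2 (2.99%, against 9.19%) and WT alone 0.

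Regions held by 4 lists were spread over all clusters, with 4 in HOXA, 4 in HOXB, 4 in HOXC and 2 in HOXD. Their fold enrichments, the authors' ratio at the summit over background, are comparable only within a list. At HOXA7, chr7:27154422-27155404 had a fold of 5.65 in EV, 4.62 in K-KD and 4.87 in K rep KO against 5.44 in K non-rep KO. Its pileups were 16, 11, 11 and 10. At HOXB13, chr17:48724259-48725935 had a fold of 5.53, 6.55, 7.60 and 4.29 in the same 4 lists. The K rep KO peak there had the highest fold of the HOX peaks of its list, with a −log10 q of 11.98. At HOXC10, chr12:53983272-53984447 had a fold of 7.41, 3.81, 4.25 and 6.10. At HOXD3, chr2:176164401-176165666 had a fold of 8.66, 5.13, 5.80 and 3.75. Its EV peak had the highest fold of the EV HOX peaks, with a −log10 q of 14.7 and a pileup of 21. These 4 regions had a peak in every list but WT.

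The other regions in 4 lists lay at HOXA3 (chr7:27107501-27108832 and chr7:27123468-27124588), HOXB1 (chr17:48526791-48527981), HOXB3 and HOXB4 (chr17:48578665-48579389), HOXB6 and HOXB7 (chr17:48605894-48606769), HOXC13 (chr12:53944923-53945857), HOXC12 (chr12:53960443-53961132) and HOXC4 (chr12:54046840-54047360). WT lacked all 8 of these. The 2 regions in 4 lists that WT did hold were at HOXA2, chr7:27102571-27103226, and at HOXD3, chr2:176162012-176163296, and K non-rep KO lacked both. At the HOXA2 region the fold was 3.22 in EV, 6.42 in K-KD, 3.49 in WT and 4.46 in K rep KO. At the HOXD3 region it was 5.26, 4.21, 5.24 and 3.06.

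WT held 5 HOX peaks. They lay at HOXA2 (chr7:27102752-27103154, fold 3.49), HOXB5 (chr17:48592251-48592694, fold 3.36), HOXC4 to HOXC6 (chr12:54031065-54031378, fold 3.39), HOXD11 (chr2:176112724-176113144, fold 3.49) and HOXD3 (chr2:176162293-176162643, fold 5.24). The first 4 had a fold below the 4.08 median of all WT peaks. Each of the 5 overlapped a HOX peak of at least 1 other list, and 3 of the 5 overlapped one of EV.

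A further 4 regions held a peak in K-KD and both knockouts and in neither EV nor WT. This is 5.97% of HOX regions (exact 95% interval 1.65 to 14.6), against 0.647% of all regions of the series, 932 in number. They lay at HOXB2, chr17:48541973-48542675, at HOXB13, chr17:48723211-48724068, at HOXC4 and HOXC5, chr12:54034437-54035086, and at HOXD8, chr2:176132321-176133132. At HOXB2 the fold was 5.02 in K-KD and 5.29 in K rep KO, with 6.98 in K non-rep KO, the highest fold of the HOX peaks in that list. The pileups there were 11, 18 and 16. At HOXD8 the fold was 2.70, 6.69 and 3.96 with pileups of 8, 14 and 7. At HOXB13 it was 2.68, 4.17 and 3.76, and at HOXC4 and HOXC5 it was 4.28, 3.74 and 3.71. Of the 4, HOXB2 was the region with a pileup of 11 or more in each of the 3 lists. In K-KD none of the 4 reached a −log10 q of 5. The values there were 4.91 at HOXB2, 3.43 at HOXC4 and HOXC5, 1.51 at HOXB13 and 1.36 at HOXD8. WT held 5 HOX peaks in all, so absence from WT sets these regions little apart, and their excess over all regions was not tested. The HOX peak of highest fold in K-KD was at HOXC9, chr12:54004898-54005714, with a fold of 7.05 and a pileup of 17.

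Overlap with K-KD was more frequent among HOX peaks than among protein-coding peaks, whose share lay below the HOX interval for EV and both knockouts. K-KD peaks covered 5.89% of HOX region length against 1.46% of protein-coding region length, so more overlaps were possible in HOX regions. The higher shares were not separated from that density. Of the K rep KO HOX peaks, 66.7% overlapped a K-KD peak (exact interval 49.0 to 81.4), against 39% of K rep KO peaks in protein-coding gene regions. For K non-rep KO the shares were 68.8% (49.99 to 83.9) and 39.1%. Of the EV HOX peaks, 54.2% overlapped K-KD (39.2 to 68.6, against 32.6%), 50% overlapped K rep KO (35.2 to 64.8, against 35.8%) and 45.8% overlapped K non-rep KO (31.4 to 60.8, against 32.3%). The last 2 intervals hold the protein-coding share. Overlap with WT was rarer than in protein-coding regions, at 6.25% of EV HOX peaks (1.31 to 17.2, against 18.6%), 7.89% of K-KD (1.66 to 21.4, against 23.9%), 8.33% of K rep KO (1.75 to 22.5, against 25.9%) and 6.25% of K non-rep KO (0.766 to 20.8, against 27.7%). WT held 5 HOX peaks in all, so few overlaps with it were possible, and these low shares are no result apart from that count. The partner lists differ in length, so each of the other shares is read beside its protein-coding value and not across partners. K rep KO HOX peaks overlapped K non-rep KO in 44.4% (27.9 to 61.9), near the 40.2% of protein-coding regions.

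The first comparison set K-KD against EV, and asks whether the knockdown went with a change in methylated stretches. HOX regions held 38 peaks against 48, a ratio of 0.792 (exact 95% interval 0.503 to 1.24), while the ratio over protein-coding gene regions was 0.583. The ratio relative to protein-coding regions was 1.36 (0.864 to 2.12), an interval that holds 1. Of the 38 genes, 9 had more peaks in K-KD and 13 had fewer, or 23.7% and 34.2%, against 10.5% with more and 48.8% with fewer of all protein-coding genes. HOXC4 and HOXC5, which share peaks, each had 2 more in K-KD. HOXD3 had 3 fewer, and HOXB3, HOXC11 and HOXC12 had 2 fewer each. With all lists cut to the length of WT by −log10 q, the counts were 23 and 18 and the ratio 1.28 (0.660 to 2.51), so the direction was not kept.

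The knockouts were set against WT and share that list. K rep KO held 36 HOX peaks against 5, a ratio of 7.20 (2.82 to 23.5), beside 2.37 over protein-coding regions, and the relative ratio was 3.04 (1.19 to 9.94). K non-rep KO held 32 against 5, a ratio of 6.40 (2.48 to 21.0) beside 2.14, and its relative ratio was 2.99 (1.15 to 9.82). In K rep KO 21 HOX genes had more peaks than in WT and 1 had fewer (HOXB5), against 44.2% with more and 6.49% with fewer of protein-coding genes. In K non-rep KO 20 had more and 1 had fewer (HOXC6), against 41.6% and 7.33%.

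The unperturbed EV list differed from WT in the same direction as the knockouts did. EV held 48 HOX peaks against 5, a ratio of 9.60 (3.84 to 30.9) beside 3.78 over protein-coding regions, with a relative ratio of 2.54 (1.02 to 8.17). More peaks were found in EV than in WT for 28 HOX genes and fewer for 1 (HOXB5), against 60.5% and 2.89% of protein-coding genes. Set against EV in place of WT, the HOX ratio was 0.750 (0.473 to 1.18) in K rep KO, and 0.667 (0.412 to 1.06) in K non-rep KO, so the direction of the knockout comparison depended on which unperturbed list was used. Relative to protein-coding regions these were 1.20 and 1.18. A difference of genotype and a property of the WT library cannot be told apart with 1 list. With all lists cut to the length of WT, the ratios to WT were 3.2 in K rep KO (1.12 to 11.2), 4 in K non-rep KO (1.46 to 13.6) and 3.6 in EV (1.29 to 12.4). With a fold of 4 or more, WT kept 1 HOX peak and the ratios were 25, 22 and 27. The relative ratio to WT stayed above 1 in each of these settings, but its interval did not always. With gene bodies alone the intervals held 1 in K rep KO (0.904 to 10.3), K non-rep KO (0.774 to 9.30) and EV (0.817 to 8.85). With a −log10 q of 5 or more their lower bounds were 0.433, 0.669 and 0.853. At equal length the lower bound was 0.960 in K rep KO, and for EV it was 0.939 with the peak summit, or 0.961 with at least 50% of the peak, in the region.

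The 2 knockouts held 36 HOX peaks in K rep KO to 32 in K non-rep KO, a ratio of 1.12 (0.679 to 1.87) beside 1.10 over protein-coding regions, with an interval that holds 1. HOX genes with more peaks in K rep KO numbered 9 and with fewer 8, against 28.4% and 22.2% of protein-coding genes. Differences of 2 or 3 peaks lay at HOXC4 to HOXC6, HOXD13 and other HOXD genes, HOXD9 and HOXD10 each holding 3 peaks in K rep KO against 0 in K non-rep KO, and HOXD12 holding 0 and 2. HOXD9 and HOXD10 share 1 of their K rep KO peaks, so their differences are not separate.

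**Figure D5:**
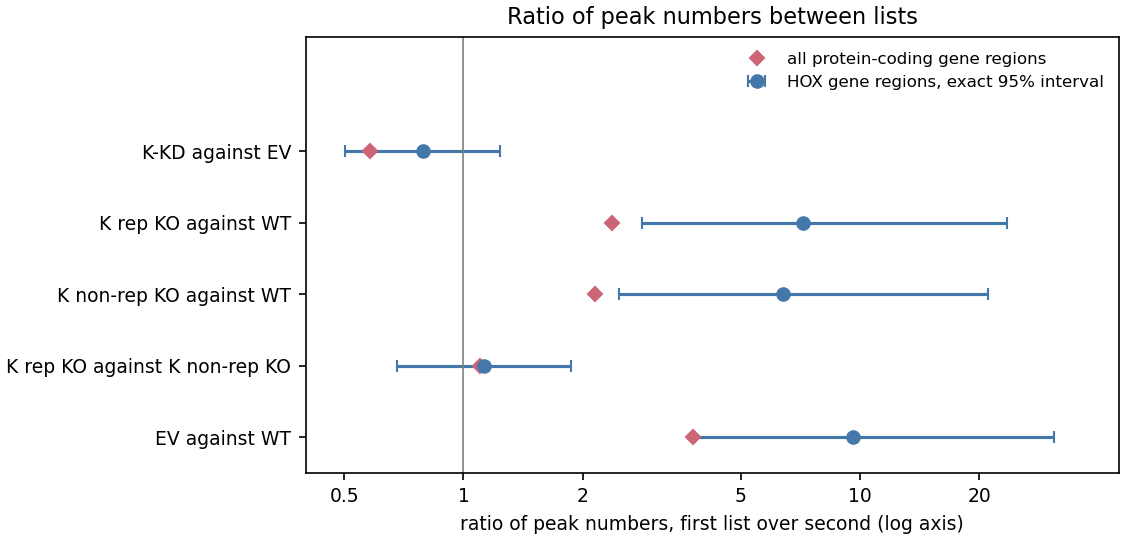
Ratio of peak numbers between lists (horizontal log axis) in HOX gene regions, with exact 95% intervals for counting error, and in all protein-coding gene regions (diamonds). The 3 comparisons with WT lie at 6.40 to 9.60, to the right of 1, and the 2 without WT have intervals that cross 1.

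Start sites could be examined for 20 of the 38 HOX genes (52.6%), with 26 distinct windows of the kind printed above. With fewer than 80% of the genes, a comparison of CG content over the HOX set is void. Among these windows 7 were touched by a peak in at least 1 list, 5 in the EV list, 3 in K-KD, 1 in WT and 2 in K rep KO, with 1 in K non-rep KO. The share of all protein-coding windows touched by a peak is not given here, so these counts cannot be called many or few. The HOXA2 window lay wholly under the EV and K rep KO peaks, and 176 and 182 of its 300 bases under those of K-KD and WT. It was the 1 window touched in more than 2 lists. HOXB1 was touched over 53 bases in EV and 112 in K non-rep KO, and HOXD10 over 170 in K-KD and 197 in K rep KO. A HOXA3 window lay wholly under an EV peak and another was touched over 85 bases in K-KD. EV peaks touched the window of HOXA11 over 25 bases and that of HOXD3 over 9. Of all 22035 protein-coding windows, 98.0% hold a CG and the median holds 21. The 7 HOX windows touched by a peak hold 6 to 25 CG (median 13) and the 19 others 0 to 44 (median 25), so the ranges overlap. HOXD10 with 23 CG was touched, and HOXD4 with 4 was not. HOXD3, with the highest number among the touched windows (25), was touched only at its edge, over 9 bases that hold no CG.

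The HOX clusters also hold microRNA genes, of which MIR10B lies between HOXD4 and HOXD8. Its hairpin at chr2:176150303-176150412, on the plus strand, lay under a K non-rep KO peak at chr2:176150138-176150547, and it was the 1 hairpin of 6 examined that lay under a peak in any list. The mature arm listed for it by RefSeq on GRCh38.p14 is shown as the product of the covered hairpin, with its seed, bases 2 to 8, in capitals.
hsa-miR-10b-3p: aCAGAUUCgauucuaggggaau

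Genes that work with or on HOX proteins gave a reference. TALE cofactors, the PBX, MEIS and PKNOX proteins that bind DNA beside HOX proteins, held 48 peaks in the EV list, 28 in K-KD, 15 in WT and 24 in K rep KO, with 24 in K non-rep KO. The list has 9 genes. Their ratios to WT relative to protein-coding regions were 0.676 in K rep KO, 0.746 in K non-rep KO and 0.846 in EV. The HOX values were 3.04, 2.99 and 2.54. The TALE intervals (0.341 to 1.39, 0.376 to 1.53 and 0.466 to 1.63) hold 1 and overlap those of the HOX genes. PBX4 held 10 peaks in EV and 4 in K-KD, and PKNOX2 held 8 in EV and 1 in WT. Polycomb and trithorax regulators, which keep HOX clusters silent or active, held 109, 78, 30, 81 and 69 peaks over 24 genes. Their relative ratios were 1.14, 1.07 and 0.960. The intervals (0.742 to 1.80, 0.690 to 1.71 and 0.636 to 1.49) also hold 1 and overlap those of the HOX genes. JARID2, a PRC2 cofactor, held 18, 14, 6, 19 and 8, KDM6A, an H3K27 demethylase, held 8, 5, 2, 10 and 4, and ASH1L, a trithorax methyltransferase, held 24, 15, 9, 17 and 18. ParaHox and EVX genes, the HOX genes' nearest relatives, held 20, 14, 2, 13 and 8 over 8 genes. Their relative ratios to WT were 2.75 in K rep KO (0.622 to 25.1), 1.87 in K non-rep KO (0.372 to 18.0) and 2.64 in EV (0.642 to 23.3), with intervals that hold 1. PDX1, the pancreas factor, held 6, 5, 1, 3 and 3, EVX2, which borders HOXD, held 4, 4, 0, 3 and 3, and EVX1, which borders HOXA, held 4, 2, 0, 3 and 1. The EVX2 region overlaps that of HOXD13, and the 2 share peaks in EV, K-KD and K rep KO.

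The other homeobox genes formed a list of 33. These genes, among them LHX, OTX and similar developmental factors outside the HOX clusters, held 94, 63, 11, 52 and 54 peaks. Their relative ratio to WT was 2.00 in K rep KO (1.03 to 4.25), 2.29 in K non-rep KO (1.18 to 4.86) and 2.26 in EV (1.21 to 4.68). These intervals overlap those of the HOX genes, so few peaks in WT cannot be called particular to the HOX clusters. LHX2, a forebrain and limb factor, held 10, 2, 0, 4 and 3 peaks, LHX4 held 7, 8, 1, 3 and 3, and OTX1 held 7, 5, 1, 4 and 5. Of those with 4 or more peaks above WT in EV, IRX3, IRX4 and OTX2 held 4 against 0, and NKX2-2 held 5 against 1. RNA and small genes of the HOX clusters held 28, 20, 1, 19 and 21 peaks over 23 genes, but 22 of the 23 touch HOX gene regions and share peaks with them. HOTAIR, a long non-coding RNA antisense within HOXC, held 4 peaks in EV and 0 in WT, and HOXB-AS1, which runs antisense beside HOXB3, held 2, 2, 0, 3 and 2. PRAC2 held 3, 2, 0, 3 and 3 and PRAC1 held 3, 2, 0, 3 and 2, both beside HOXB13.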

How the data were processed

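Genomic DNA of 5 HEK293T conditions was immunoprecipitated with an anti-5-methylcytosine antibody and sequenced beside its input, per the labels' protocols. The submitters' processing notes name Bowtie2, MACS2 and deepTools and the GRCh38 build. Their versions, their settings and whether input served as the caller's control are details not given in the sources used here. For each condition 1 narrowPeak list was deposited by the authors. Its fold enrichment is a deposited ratio, its significance deposited −log10 p and −log10 q values, and its score the deposited whole-number form of the −log10 q; they served to describe, rank or filter peaks of the same list. A further list (1) matched none of the sample labels by name and entered no step. K-KD was read as the list of the KD sample. Peak names inside the knockout lists carry other prefixes than the lists, so their assignment rests on the lists' names.

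Peaks outside chromosomes 1 to 22 and X, 3.56% to 5.83% of a list, were dropped. Positions are 1-based on GRCh38. Gene positions came from a RefSeq table of GRCh38.p14 that gives no strand, so gene bodies were widened by 2 kb on both sides into gene regions. Overlap meant at least 1 bp. All 38 HOX symbols matched, and start windows matched for 20. Ratios of peak numbers and shares carry exact (Clopper-Pearson) and counts exact Poisson 95% intervals, for counting error only. There are no replicates, and no p-value is given. The relative ratio is the HOX ratio divided by that over protein-coding gene regions. Read depth per sample is not given by the lists. Pileup was solved from fold as (pileup + 1)/(background + 1) and p as a Poisson tail, to a tolerance of 0.001; all HOX peaks and 98.7% to 100.0% of all peaks gave a whole number. The scripts were tested on simulated data.

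The comparisons follow the order of conditions in the series text, as the labels state no pairing. The members, gene lists and tests were chosen with earlier results of these data known. Genes described are those with 3 or more peaks in any list and the one with most peaks in each cluster, with the remaining members given as counts. In the other gene lists the 3 genes with most peaks and some that differed by 4 or more peaks are named, except 1 gene that is not reported here. Alternatives were stricter thresholds on −log10 q and fold, lists of equal length, gene bodies alone, regions widened to 10 kb and other controls. Python 3.11.15, pandas 2.3.3, numpy 2.4.6 and scipy 1.17.1 were used.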

Additional observations from a re-analysis of the deposited data

Results flagged for a closer look

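The HOX ratio lay on opposite sides of 1 for the knockdown set against EV and the knockouts set against WT, a pairing that the labels do not state. K-KD held fewer HOX peaks than EV, a ratio of 0.792 with an interval that holds 1 (0.503 to 1.24), while both knockouts held more than WT, with 7.20 for K rep KO and 6.40 for K non-rep KO. Relative to protein-coding gene regions all 3 lay above 1, at 1.36, 3.04 and 2.99, and with lists of equal length K-KD against EV stood at 1.28. There is 1 list per condition, so this difference was not tested. The 2 knockout ratios share the WT list, and the 2 unperturbed lists themselves held 48 and 5 HOX peaks.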

How the results depend on the processing

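No paired analysis was possible because each condition had 1 peak list. The direction of both knockout ratios turned when EV replaced WT as the control, to 0.750 in K rep KO, with 0.667 in K non-rep KO, and K-KD against WT stood at 7.60; these controls were chosen after seeing the data, and the cause was not tested. Limiting peaks to a −log10 q of 5 or more left 20 HOX peaks in the EV list, 9 in K-KD, 1 in WT and 7 in K rep KO, with 8 in K non-rep KO. The K-KD to EV ratio was then 0.450. It left 31 regions, 12 of them in at least 2 lists and 0 in the 4 lists other than WT. A fold of 4 or more left 27, 22 and 1 in EV, K-KD and WT, with ratios to WT of 25 in K rep KO against 22 in K non-rep KO. K rep KO to K non-rep KO fell below 1 in 2 settings, to 0.875 with that −log10 q and 0.8 at equal length, with intervals that hold 1. Both filters leave fewer peaks by construction. Cutting all lists to the length of WT by −log10 q left 18 in EV, 23 in K-KD and 16 in K rep KO, with 20 in K non-rep KO, and moved the ratio to 1.28 in K-KD against EV, across 1, and to 3.6 in EV against WT. Gene bodies alone left 24 in K-KD and 20 in K non-rep KO. In all, 56 of 81 such values moved by less than their interval or 1.5 times. WT held 1 to 5 HOX peaks in every setting run.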
